A study of Mus musculus with 36 samples.

Results

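The miRNAs described here come from 1 run of microRNA (miRNA) hairpins on the mouse X chromosome, which starts with miR-322 and ends with miR-450b. All rows of the deposited miRNA table named miR-322, miR-503, miR-351, miR-542, miR-450a or miR-450b, with any hairpin number or arm, were taken, which gave 12 mature miRNAs of the 469 in the table. Levels were not used to choose them, although earlier results of these data were known when they were chosen. They are both arms (the 5p and 3p strands of a hairpin) of miR-322, miR-503, miR-351, miR-542 and miR-450b, together with miR-450a-5p and miR-450a-1-3p.

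The data are small RNA-seq values from the mouse pre-B cell line B3, sampled in 36 cultures. The Ikaros line was a population sorted for GFP after transduction with a retroviral vector carrying HA-tagged Ikaros fused to ERt2, a receptor domain that moves the fusion into the nucleus when 4-hydroxytamoxifen (4-OHT) is added. The control line carried the same kind of vector with ERt2 and GFP and without Ikaros, which the labels call an empty vector. Each line was sampled at 0, 2, 6, 12, 18 and 24 h, with 3 biological replicates (numbered 1, 2 and 4) at each time, so each line had 18 samples. The labels give 0.5 uM 4-OHT for every sample, 0 h included, whereas the methods describe 0 h as untreated. The 0 h samples came from other culture batches than the later samples, and therefore time from 0 h and culture batch cannot be told apart within a line. Libraries were prepared and sequenced on 2 occasions, which the authors corrected for with the help of samples repeated on both. The drawing of the study's design shows the lines spread unevenly over these occasions at 2 to 18 h, and no label gives the occasion of a sample, so line and occasion can be told apart only through that correction.

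A miRNA hairpin is cut from a longer transcript and trimmed to a short duplex, and usually the strand from 1 arm is kept in the Argonaute complex, which it guides to messenger RNAs that pair with its seed (bases 2 to 8). miR-322 (miR-424 in human) and miR-503 are related to the miR-15 and miR-16 family and are known for repressing cyclins and other cell cycle genes, and for rising when muscle precursors leave the cell cycle. Ikaros is a zinc finger transcription factor that slows the division of pre-B cells and promotes their differentiation.

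The mature sequences are shown because their seeds decide which members could act on the same messages. They are RefSeq sequences (GRCm38.p6), 5′ to 3′, with the seed in capitals, in the order of the hairpins along the transcribed strand.
mmu-miR-322-5p: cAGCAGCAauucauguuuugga
mmu-miR-322-3p: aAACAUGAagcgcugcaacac
mmu-miR-503-5p: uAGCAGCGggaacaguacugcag
mmu-miR-503-3p: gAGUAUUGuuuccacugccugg
mmu-miR-351-5p: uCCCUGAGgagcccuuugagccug
mmu-miR-351-3p: gGUCAAGAggcgccugggaac
mmu-miR-542-5p: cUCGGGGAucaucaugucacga
mmu-miR-542-3p: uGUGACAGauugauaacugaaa
mmu-miR-450a-5p: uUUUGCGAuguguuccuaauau
mmu-miR-450a-1-3p: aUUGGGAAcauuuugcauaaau
mmu-miR-450b-5p: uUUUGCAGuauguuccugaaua
mmu-miR-450b-3p: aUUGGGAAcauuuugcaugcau

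All 12 members matched a RefSeq entry, and they carried 11 distinct seeds. Only miR-450a-1-3p and miR-450b-3p shared a whole seed, UUGGGAA. The seed of miR-322-5p, AGCAGCA, was also that of miR-15a-5p, miR-15b-5p, miR-16-5p and miR-195a-5p. The seed of miR-503-5p (AGCAGCG) was not identical to it. The seed of miR-351-5p, CCCUGAG, was also that of miR-125a-5p. The GC content of the members ran from 27.3% (miR-450a-1-3p) to 66.7% (miR-351-3p), a property that the authors' normalisation adjusted for.

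The 7 hairpins lay within 6353 bp of chromosome X (GRCm38), all transcribed from its minus strand. Mir322 (chrX:53054255-53054349) came first in the direction of transcription. Mir503 began 295 bp further on, Mir351 996 bp, Mir542 4862 bp, Mir450-2 5982 bp, Mir450-1 6105 bp and Mir450b 6271 bp from the start of Mir322. miR-450a-5p was identical in the Mir450-1 and Mir450-2 hairpins, so its value cannot be assigned to either. In the RefSeq annotation, Mir322, Mir503 and Mir351 lay inside the long noncoding RNA gene C430049B03Rik (chrX:53053112-53057190), and the other 4 hairpins lay in no annotated gene. In GENCODE vM21, where C430049B03Rik is shorter at its 3′ end (chrX:53055046-53057190), none of the 7 overlapped another gene.

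The values are log2 normalised expression levels, in which the read count behind each value can no longer be seen. They ran from 0.09 to 19.3 over the table, with sample medians between 3.70 and 4.15. The haematopoietic miRNAs miR-191-5p and miR-181a-5p ranked 1 and 2 of 469, and all 7 haematopoietic markers looked for were in the table, although miR-150-5p was low (mean 3.90, rank 236). Of 14 markers of other cell types 5 were in the table, among them miR-9-5p, a miRNA of neural cells, at a mean of 13.30 (rank 17). Its part in the results was not tested.

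The members differed widely in level. miR-351-5p was the most abundant, with a mean over 36 samples of 10.92 and rank 50 of 469, and miR-322-5p followed at 9.07 (rank 83). miR-450b-5p (6.51) and miR-450a-5p (6.4) differed by less than the pooled SD of replicates around their group means (0.17 and 0.20). The next were miR-322-3p at 4.40 and miR-542-3p at 4.03. The other 6 members lay below 3, near the bottom of the scale. These were miR-503-5p (2.94), miR-542-5p (2.67), miR-351-3p (2.21), miR-450b-3p (1.79), miR-503-3p (1.69) and miR-450a-1-3p, which at 1.00 ranked 458 of 469. The most abundant members were also the noisier ones, since the pooled SD was 0.53 for miR-322-5p and 0.52 for miR-351-5p, against a median of 0.36 over all miRNAs.

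**Figure D1:**
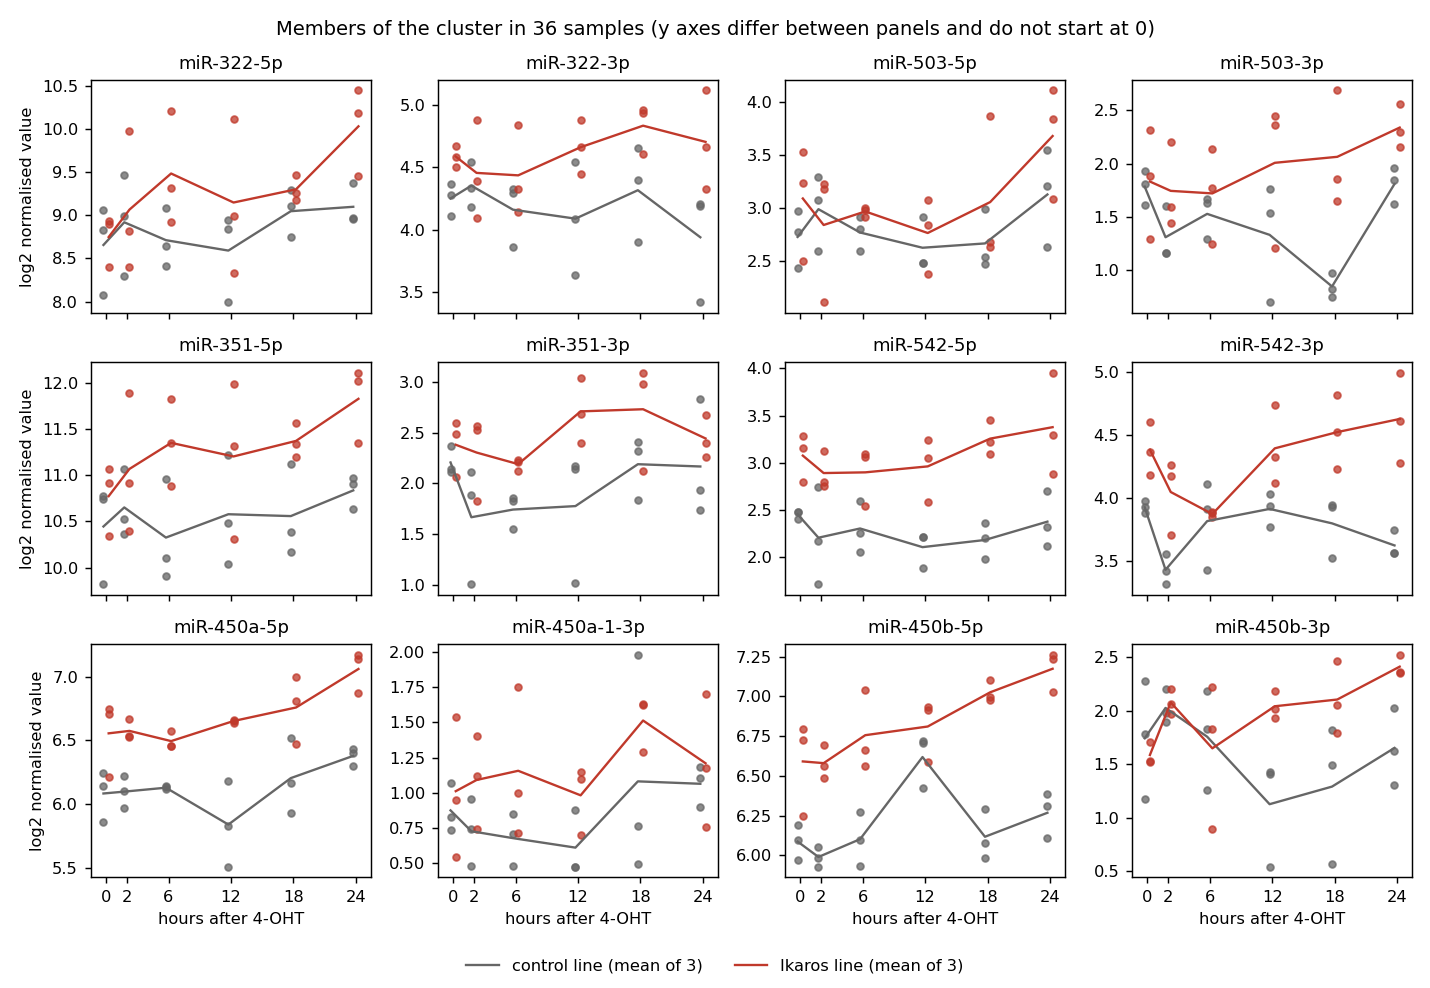
Log2 normalised value (y axis, a separate range in each panel) of each of the 12 members against hours after 4-OHT (x axis). Points are samples, lines join the means of 3 replicates, grey is the control line and red the Ikaros line. The red line lies above the grey at every time for most members, and the highest group mean of 9 members is that of the Ikaros line at 24 h.

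Most members of the cluster were higher in the Ikaros line when all times were averaged. Over the 6 times, 11 of the 12 members were higher in Ikaros than in control cells at an adjusted p under 0.05 (limma, adjusted over 469 miRNAs), where 52.5% of all miRNAs were called and 26% were called higher. The differences ran from 0.25 to 0.80 on the log2 scale with a median of 0.51, beside a median of 0.03 over all miRNAs. The highest group mean was that of Ikaros at 24 h for 9 members and of Ikaros at 18 h for the other 3, miR-322-3p, miR-351-3p and miR-450a-1-3p. The lowest group mean of all 12 was a control group. How many of all miRNAs had their highest or lowest mean in these groups was not counted, so these counts are a description. Without replicate 2 of every group, which leaves 2 samples a group, 7 members passed. Of all 469 miRNAs 182 passed there, in place of 246.

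By size, miR-542-5p led with an averaged difference of 0.80 ± 0.11 (SE, adjusted p = 1.812e-07), followed by miR-351-5p with 0.70 ± 0.16 (adjusted p = 0.000500). miR-450b-5p had the smallest error, 0.63 ± 0.07 (adjusted p = 3.059e-09). miR-450a-5p and miR-542-5p were higher in the Ikaros sample of all 18 pairs of the same culture batch and time. miR-503-5p was the member that missed the threshold, at 0.25 ± 0.14 (adjusted p = 0.133) and higher in 14 of 18 pairs. The 5p arms had a median of 0.59 and the 3p arms one of 0.47.

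**Figure D2:**
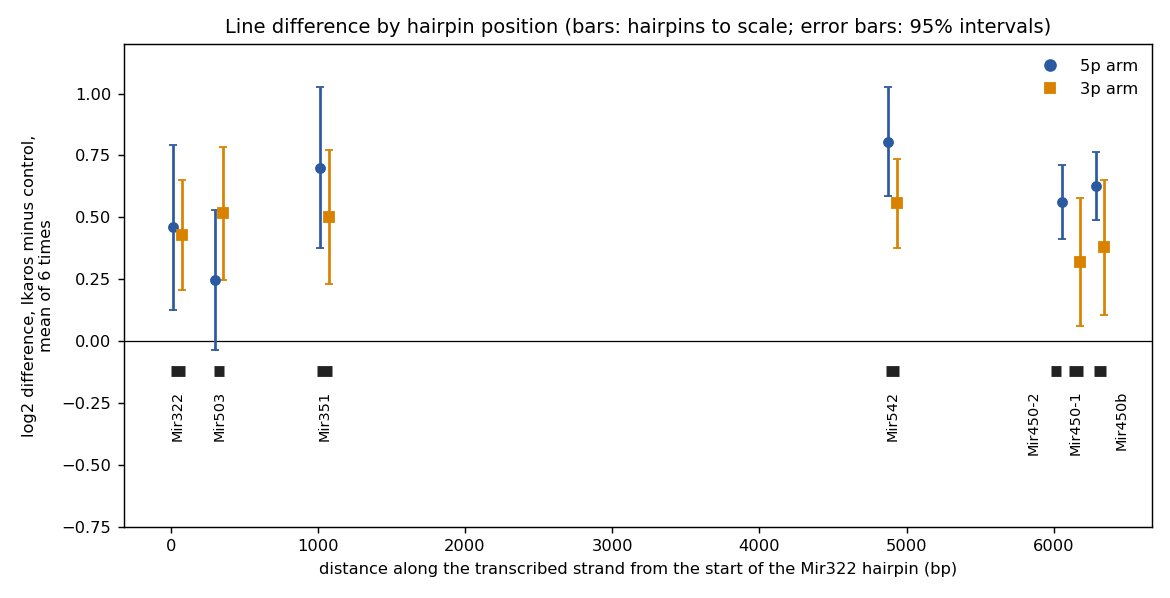
Line difference averaged over 6 times (y axis, log2, Ikaros minus control) against distance from the start of Mir322 in bp (x axis). Circles are 5p and squares 3p arms with 95% intervals, and black bars are the hairpins to scale. All 12 estimates lie between 0.25 and 0.80, and only the interval of miR-503-5p reaches below 0.

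The difference was seen along the length of the cluster. The 6 members of the first 3 hairpins (miR-322, miR-503 and miR-351) had a median of 0.48, and the 6 members of miR-542 and miR-450, almost 5 kb further along, one of 0.56. At 24 h the medians were 0.66 and 0.83. The difference between the stretches was not tested. The interval of miR-503-5p (−0.03 to 0.53) ended below that of miR-542-5p (0.59 to 1.02). These were the smallest and the largest estimates and were picked after they were seen. Their intervals therefore cannot show that single members differed, and differences between members were not tested.

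At 24 h all 12 members had a higher mean in Ikaros than in control cells, as had 45.8% of all miRNAs, and 6 passed the test (limma), where 39.9% of all miRNAs were called and 17.9% were called higher. The median of the members was 0.76, beside −0.07 over all miRNAs. In 9 of the 12 every Ikaros sample lay above every control sample, which held for 23.9% of all miRNAs. With 2 samples a group the number of members that passed was 3 without replicate 1, 2 without replicate 2 and 5 without replicate 4. Of all 469 miRNAs 142, 110 and 139 passed in these fits, in place of 187. miR-450b-5p and miR-542-3p passed in each of these and in every other setting tried.

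miR-450b-5p, from the last hairpin, read 6.39, 6.31 and 6.11 in control cells at 24 h (replicates 1, 2 and 4) and 7.23, 7.26 and 7.03 in Ikaros cells. The Ikaros samples lay well apart from the control samples and close to each other. The difference was 0.91 ± 0.16 on the log2 scale (SE, 1.87-fold, adjusted p = 6.490e-05). Its arm partner miR-450b-3p, one of the least abundant members, read 2.02, 1.63 and 1.31 in control and 2.36, 2.52 and 2.35 in Ikaros cells. These groups did not overlap either, but the difference of 0.76 ± 0.33 did not pass (adjusted p = 0.0633).

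miR-450a-5p, which differs from miR-450b-5p within the seed, read 6.43, 6.30 and 6.4 in control cells and 7.14, 7.17 and 6.87 in Ikaros cells at 24 h. All 3 Ikaros samples were above the control samples, by 0.68 ± 0.18 (1.61-fold, adjusted p = 0.00307). miR-450a-1-3p, near the bottom of the table, read 1.10, 0.90 and 1.19 in control and 1.17, 1.70 and 0.76 in Ikaros cells, with overlapping groups and a difference of 0.15 ± 0.31 (adjusted p = 0.732). The sign of that difference depended on the replicates, with −0.18 as the lowest value among the settings tried.

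The miR-542 hairpin was the one where the 3p arm was the more abundant. miR-542-3p read 3.56, 3.74 and 3.56 in control cells at 24 h and 4.61, 5.00 and 4.27 in Ikaros cells. The lowest Ikaros sample was above the highest control sample, and the difference was 1.00 ± 0.22 (2.01-fold, adjusted p = 0.000457). miR-542-5p read 2.70, 2.32 and 2.11 in control and 2.88, 3.30 and 3.96 in Ikaros cells. Its groups were separated only narrowly, by Ikaros replicate 1, and the difference was 1.00 ± 0.26 (2.00-fold, adjusted p = 0.00310). Without replicate 4 it was 0.58 and did not pass (adjusted p = 0.140).

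miR-351-5p, the most abundant member and a relative of miR-125 by seed, read 10.97, 10.64 and 10.90 in control cells at 24 h and 12.11, 12.02 and 11.35 in Ikaros cells. The Ikaros samples were all higher, by 0.99 ± 0.39 (1.99-fold, adjusted p = 0.0434), with replicate 4 the nearest to control. The call was close to the threshold, and without replicate 2 the adjusted p was 0.307. miR-351-3p read 1.93, 1.73 and 2.83 in control and 2.67, 2.39 and 2.26 in Ikaros cells, with overlapping groups (0.28 ± 0.32, adjusted p = 0.534).

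miR-322-5p, which carries the seed of the miR-15 and miR-16 family, read 9.37, 8.95 and 8.97 in control cells at 24 h and 10.45, 10.18 and 9.46 in Ikaros cells. Its groups did not overlap, yet the difference of 0.93 ± 0.40 (1.91-fold) missed the threshold (adjusted p = 0.0634). Without replicate 4 it was 1.15 and passed (adjusted p = 0.0245). miR-322-3p, with the smaller level, read 3.42, 4.19 and 4.21 in control and 4.33, 4.67 and 5.12 in Ikaros cells. This arm passed, at 0.77 ± 0.26 (1.70-fold, adjusted p = 0.0218), although it did not when any 1 replicate was left out (adjusted p from 0.0728 to 0.121).

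The miR-503 arms did not pass at 24 h. miR-503-5p read 3.54, 2.63 and 3.21 in control cells and 4.11, 3.84 and 3.08 in Ikaros cells, and the groups overlapped because Ikaros replicate 4 lay below 2 control samples (0.55 ± 0.34, adjusted p = 0.197). miR-503-3p read 1.84, 1.96 and 1.63 in control and 2.56, 2.30 and 2.16 in Ikaros cells. There the groups did not overlap, and the difference was 0.53 ± 0.32 (adjusted p = 0.194).

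No member passed the test at 0 h. At that time 11 of 12 members had the higher mean in Ikaros cells (46.5% of all miRNAs), with a median of 0.33 beside −0.03 over all miRNAs. The adjusted threshold was passed by 0 of 12 (limma, 8.53% of all miRNAs called), and 4 had an unadjusted p under 0.05 (16% of all). The 4 were miR-450b-5p, miR-450a-5p, miR-542-5p and miR-542-3p, all from the far end of the cluster. Every Ikaros sample lay above every control sample in 4 of the 12 members (12.6% of all miRNAs). Among these was miR-322-3p, from the first hairpin, with a difference of 0.34 ± 0.26 (adjusted p = 0.639). The groups of miR-450a-5p overlapped. miR-450b-5p read 6.1, 6.19 and 5.97 in control cells at 0 h and 6.73, 6.80 and 6.25 in Ikaros cells. Every Ikaros sample was higher, by 0.50 ± 0.16 (adjusted p = 0.0514), and once a replicate block for culture batch was fitted the adjusted p was 0.0348. miR-542-5p read 2.41, 2.48 and 2.48 in control and 3.16, 2.79 and 3.28 in Ikaros cells, again without overlap (0.62 ± 0.26, adjusted p = 0.193). miR-322-5p did not separate the lines at 0 h, with 9.07, 8.83 and 8.08 in control and 8.94, 8.90 and 8.40 in Ikaros cells (0.09 ± 0.40, adjusted p = 0.977).

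**Figure D3:**
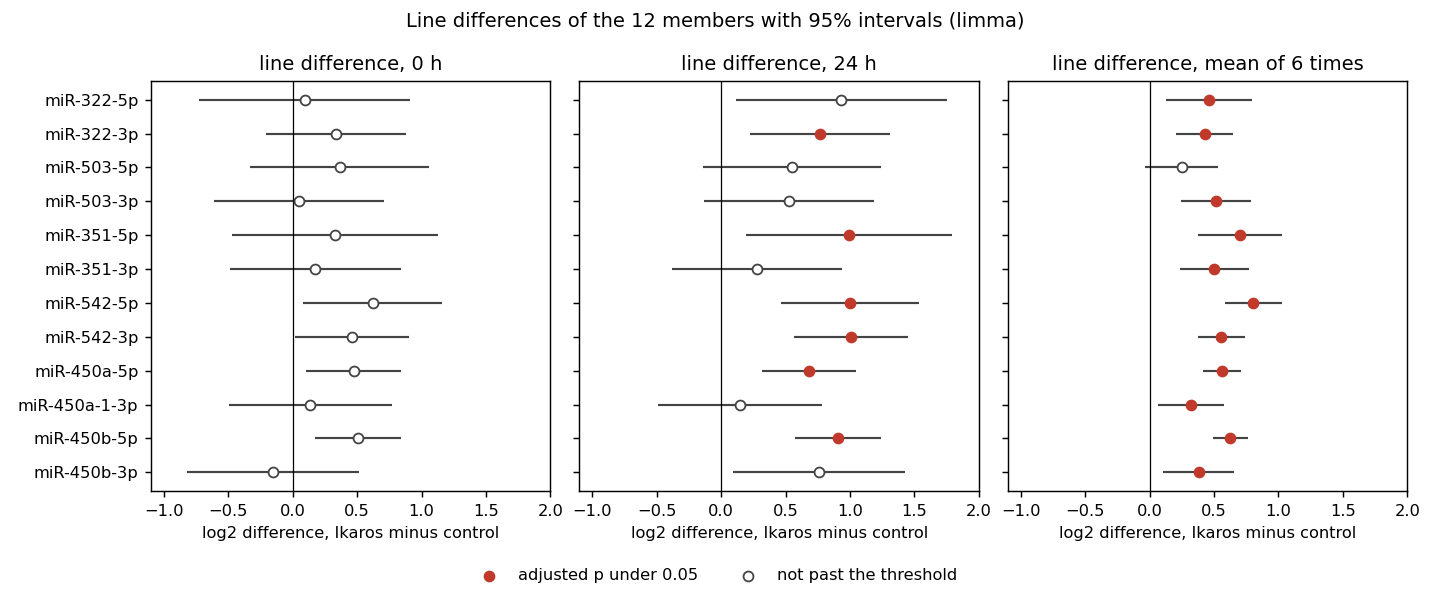
Line difference (x axis, log2, Ikaros minus control) of each member (y axis) at 0 h, at 24 h and averaged over 6 times, with 95% intervals from limma. Filled points have an adjusted p under 0.05. No member is filled at 0 h, 6 are at 24 h and 11 in the average.

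Between 0 and 24 h the number of members past the threshold went from 0 through 1, 1, 4 and 5 to 6 at 2, 6, 12, 18 and 24 h, and all were higher in Ikaros cells. The share of all miRNAs called also grew. Between 2 and 18 h it went from 11.3% through 15.1% and 21.7% to 29.9%, with both directions counted. Because every called member was higher, calls in the higher direction are the closer comparison. For these the shares of all miRNAs were 7.25%, 7.89%, 12.6% and 13%. Those of the members were 8.33%, 8.33%, 33.3% and 41.7%, which rest on 1 to 5 members. They lay above the shares of all miRNAs, though only slightly so for 2 and 6 h, and the excess was not tested. The members called at 12 and 18 h were not a fixed set. At 2 and 6 h only miR-450b-5p passed, with differences of 0.59 ± 0.16 and 0.65 ± 0.16 (adjusted p = 0.0178 and 0.00531). Neither call held without replicate 1 or without replicate 2, and that at 2 h did not hold without replicate 4 either.

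At 12 h the called members were miR-351-3p (0.94), miR-450b-3p (0.92), miR-542-5p (0.86) and miR-450a-5p (0.81), with adjusted p between 0.00128 and 0.0429. miR-450a-5p read 5.83, 5.51 and 6.18 in control and 6.66, 6.64 and 6.65 in Ikaros cells, so its Ikaros replicates were almost equal and the control samples spread below them. None of the 4 passed without replicate 2 of every group, or when only the 12 h samples were used in the fit. Of all 469 miRNAs 34 and 18 passed there, in place of 102. Without replicate 1 only miR-450a-5p of the 4 passed, and 67 of all miRNAs. miR-450b-3p did not pass without replicate 4 (adjusted p = 0.0574) or with quantile normalisation (adjusted p = 0.0876) either. Once a replicate block was fitted miR-351-3p did not pass (adjusted p = 0.0503). miR-450b-5p was not called at 12 h, where its control samples stood at 6.42, 6.71 and 6.72, beside 6.91, 6.59 and 6.93 in Ikaros cells, and the groups overlapped.

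At 18 h the called members were miR-503-3p (1.22), miR-542-5p (1.07), miR-450b-5p (0.91), miR-542-3p (0.72) and miR-450a-5p (0.55), with adjusted p between 7.328e-05 and 0.0188. Without replicate 1, 3 members passed, among them miR-351-5p in place of others, and without replicate 2, 3 of the 5 passed. Of all 469 miRNAs 98 and 69 passed in these fits, in place of 140. miR-503-3p read 0.82, 0.75 and 0.97 in control and 1.85, 1.65 and 2.69 in Ikaros cells. The control samples there were its lowest of the time course together with 1 control sample at 12 h. miR-542-5p read 1.98, 2.2 and 2.36 in control and 3.45, 3.22 and 3.10 in Ikaros cells, which lay more than a log2 unit apart on average.

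A growth of the line difference itself could not be shown for any member. The difference at 24 h minus that at 0 h was above 0 for all 12 members (47.1% of all miRNAs), with a median of 0.42 beside −0.05. None passed in either direction (limma, 5.76% of all miRNAs called above 0 and 6.61% below 0), and none had an unadjusted p under 0.05 either (26.4% of all). miR-450b-3p came nearest, at 0.92 with a 95% interval of −0.03 to 1.86 (adjusted p = 0.203). The interval of miR-450b-5p was −0.07 to 0.88 and that of miR-542-3p −0.08 to 1.17, so these intervals hold 0 as well as sizeable increases. Taken from 2 h, which shares culture batches with 24 h, the growth was above 0 for 10 of 12 members (40.1% of all miRNAs) and again passed for none (14.3% of all called, none of the members and 29.4% of all at an unadjusted p under 0.05). The test of any change of the line difference over the 6 times called none of the members and 13% of all miRNAs.

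Within the Ikaros line, all 12 members had a higher mean at 24 h than at 2 h (43.5% of all miRNAs), and 3 rose at an adjusted p under 0.05 (limma, 28.6% of all called, 9.81% called higher). These were miR-450b-5p (0.59 ± 0.16, adjusted p = 0.00681), miR-542-3p (0.58 ± 0.22, adjusted p = 0.0432) and miR-450a-5p (0.49 ± 0.18, adjusted p = 0.0409). miR-450b-5p read 6.69, 6.56 and 6.49 at 2 h against the 24 h values above. Each of the 3 was higher at 24 h in all 3 culture batches, in the control line as well as in the Ikaros line. The control line rose by 0.46, 0.25 and 0.12 for miR-450b-5p in replicates 1, 2 and 4. For miR-542-3p it rose by 0.14, 0.19 and 0.25, and for miR-450a-5p by 0.21, 0.20 and 0.44. Of the 12 members 10 had a higher control mean at 24 h than at 2 h (54.6% of all miRNAs). In the Ikaros line none of the 3 passed without replicate 1 or without replicate 2, or when only the compared groups were used in the fit. Of all 469 miRNAs 89, 54 and 71 passed in these fits, in place of 134. In the fit with a replicate block miR-503-5p passed as well (0.84, adjusted p = 0.0246, against 0.0623 without the block).

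The abundant pair moved unevenly between cultures. From 2 to 24 h in the Ikaros line miR-322-5p changed by 2.04, 1.36 and −0.51 in replicates 1, 2 and 4, and miR-351-5p by 1.72, 1.10 and −0.55. Replicate 4 went against the other replicates for both, from a 2 h value that was already high (9.97 for miR-322-5p and 11.90 for miR-351-5p). In the control cells of the same culture batches miR-322-5p changed by 0.38, 0.66 and −0.50 and miR-351-5p by 0.45, 0.27 and −0.16, so replicate 4 stood apart in the same direction there. Without replicate 4 the changes in the Ikaros line were 1.70 (adjusted p = 0.00316) and 1.41 (adjusted p = 0.0168). With it neither passed, at 0.96 (adjusted p = 0.0693) and 0.76 (adjusted p = 0.15).

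Against 0 h, the Ikaros cells had 4 members at a higher level at 24 h (30.7% of all miRNAs called, 14.3% called higher), namely miR-322-5p (1.28), miR-351-5p (1.05), miR-450b-5p (0.58) and miR-450a-5p (0.51), with adjusted p from 0.00750 to 0.0395. None passed without replicate 1 or without replicate 2, and of the 4 only miR-322-5p passed without replicate 4. Of all 469 miRNAs 72, 56 and 118 passed in these fits, in place of 144. In the control line none of the members passed between 2 and 24 h or between 0 and 24 h (limma, 0% of all miRNAs called in each). None of the members had an unadjusted p under 0.05 there, which 7.04% and 3.41% of all miRNAs had.

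Taken back to the linear scale and summed, the 12 members made up a small share of each sample's total. The share was 0.153% ± 0.0416 (SD, n = 3) in control and 0.172% ± 0.0356 in Ikaros cells at 0 h. At 24 h it was 0.195% ± 0.0211 in control and 0.347% ± 0.0671 in Ikaros cells, where the lowest Ikaros sample (0.272%) was above the highest control sample (0.217%). These are shares of normalised values and not of reads. Most of each sum came from miR-351-5p and miR-322-5p. Before the return to the linear scale, their means in Ikaros cells at 24 h were 11.83 and 10.03. The next member, miR-450b-5p, had 7.17. The shares therefore mainly restate the values of miR-351-5p and miR-322-5p, and say little about the other members.

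A difference between the lines in the balance of the arms was not shown. For each hairpin the log2 value of the 3p arm was subtracted from that of the 5p arm in every sample, and the lines were compared over the 18 pairs of the same culture batch (exact permutation test, signs of the pair differences flipped, two-sided, adjusted over 6 hairpins). The 18 pairs came from 6 culture batches, so the test took repeated times of a batch as independent pairs. None of the 6 hairpins passed (adjusted p from 0.199 to 0.863). miR-351 was the most one-sided, with 8.61 ± 0.76 in control and 8.81 ± 0.66 in Ikaros cells (SD, n = 18). miR-542 was the one below 0, at −1.48 ± 0.36 and −1.23 ± 0.42. miR-503 was nearest to balance, at 1.38 ± 0.47 and 1.11 ± 0.67. The miR-450a hairpin, where the 3p arm is of hairpin 1 only, had the smallest p, with a shift of 0.24 and 14 of 18 pairs above 0 (exact permutation p = 0.0386, adjusted p = 0.199).

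**Figure D4:**
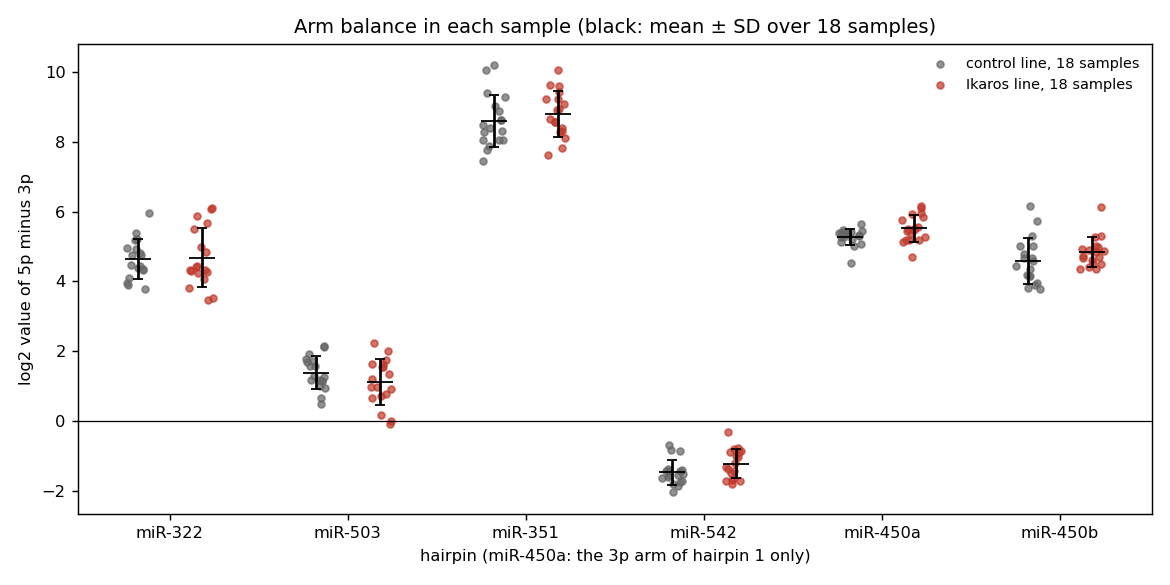
Log2 value of the 5p arm minus that of the 3p arm (y axis) for each hairpin (x axis) in every sample, with the mean and SD over 18 samples in black. Grey is the control line and red the Ikaros line. The lines overlap for every hairpin, and miR-542 is the one whose samples all lie below 0.

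Seeds could be compared for the 391 of 469 miRNAs that matched a RefSeq sequence. Among these, 5 from elsewhere in the genome carried the seed of miR-322-5p or miR-351-5p. Of these 5, 2 were called at 24 h, both higher in Ikaros cells, which is a share close to the 39.9% of all miRNAs called (17.9% called higher). miR-195a-5p (chromosome 11) differed by 0.97 ± 0.28 (adjusted p = 0.00592), beside 0.93 for miR-322-5p. It was far less abundant than miR-322-5p, with means of 2.41 in control and 3.38 in Ikaros cells. Its differences within culture batches were 1.95, 0.73 and 0.23 in replicates 1, 2 and 4. miR-15a-5p (chromosome 14) differed by 0.45 ± 0.13 (adjusted p = 0.00824). miR-16-5p had 0.28 ± 0.13 (adjusted p = 0.0901), miR-15b-5p −0.35 ± 0.22 (adjusted p = 0.222) and miR-125a-5p 0.08 ± 0.29 (adjusted p = 0.842). Averaged over the 6 times 4 of the 5 were higher (26% of all miRNAs called higher), by 0.21 to 0.35, and miR-15b-5p had −0.12 (adjusted p = 0.264). The differences between these miRNAs and the members were not tested.

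Another miRNA cluster on the X chromosome, which holds miR-106a, miR-18b, miR-20b and miR-363 and is related to the growth-promoting miR-17 cluster, lies 305.4 kb away. Only the arms of these named miRNAs were looked up, and all 8 were in the data. All 8 were lower in Ikaros cells at 24 h (22% of all miRNAs called lower), by −0.93 to −1.64 on the log2 scale (adjusted p from 3.401e-07 to 0.0349, limma). All 8 were lower in the average over times as well (−0.60 to −1.02, 26.4% of all called lower), and 5 already at 0 h (4.05% of all called lower). At 24 h and in the average, these 8 arms and the 12 members thus differed between the lines in opposite directions.

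By Pearson's r of the 12 group means, the miRNAs outside the cluster whose profile was most like the mean profile of the members were miR-872-3p (r = 0.985), miR-28a-3p (0.973), miR-361-5p (0.968), miR-500-3p (0.964) and miR-362-3p (0.962), of 457. They were chosen on these group means, so their line differences at 24 h, from 0.86 (miR-361-5p) to 3.46 (miR-362-3p) on the log2 scale, are a description. Among the members, r with the mean profile of the others ran from 0.687 (miR-450b-3p) to 0.964 (miR-450a-5p). The group means share their normalisation and are given as a description.

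Across the 36 samples the 66 pairs of members had a median Pearson's r of 0.424, beside 0.0104 over all pairs of miRNAs. After the mean of each of the 12 groups was subtracted, the median over member pairs was −0.00252, beside 0.0140 over all pairs. The member pairs ran from −0.641 to 0.905 within groups, with miR-322-5p and miR-351-5p the highest. miR-322-3p deviated against both, at r = −0.551 with the 5p arm of its own hairpin and −0.641 with miR-351-5p. miR-542-3p and miR-503-5p had r = 0.525, miR-450a-5p and miR-450a-1-3p 0.523, and the arms of miR-351, miR-450b, miR-542 and miR-503 had −0.333, −0.328, −0.156 and −0.107. The deviations of miR-322-5p were also shared outside the cluster: 34 of the 468 other miRNAs had r above 0.8 with it, led by miR-186-5p (0.976), and 9 had r below −0.8. For miR-351-5p the numbers were 31 and 8, and for the other 10 members none. These values are descriptions over samples that share their normalisation and sequencing batches, and their part in the results was not tested.

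**Figure D5:**
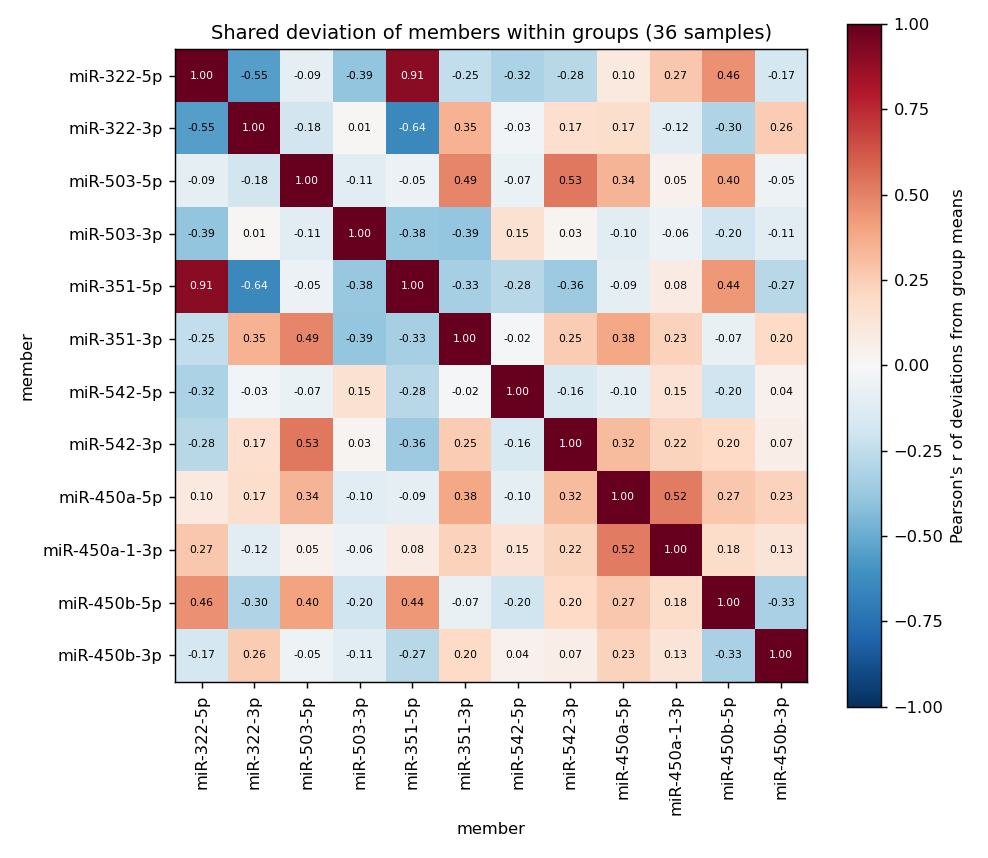
Pearson's r between the deviations of each pair of members (x and y axes) from their group means over 36 samples, by colour from −1 to 1. miR-322-5p and miR-351-5p stand out at 0.91, and miR-322-3p is negative with both.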

How the data were processed

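Small RNA was sequenced from 36 B3 samples, in 12 groups of 3. The deposited values are log2 expression made by the authors: reads were aligned with Novoalign against miRBase miRNAs and counted with bedtools (mm10 in the submitters' processing notes), low miRNAs were filtered, and values were corrected for GC content (cqn), scaled (TMM) and adjusted for sequencing batch (ComBat), with technical replicates averaged. Read counts were not used here, so no counting intervals are given.

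Differences were tested with limma 3.58.1 (R 4.3.3), with the means of 12 groups, empirical Bayes with a mean-variance trend and Benjamini-Hochberg adjustment over 469 miRNAs in each contrast (threshold 0.05). Arm balance was tested over 18 pairs with all 262144 sign arrangements. Tables and figures were made with Python 3.11.15. The fit was tested on simulated data. Sequences and positions came from RefSeq (391 of 469 miRNAs matched).

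Same-numbered samples of the lines came from the same culture batch per the labels, and their deviations from group means had r = 0.260 over all times (0.0633 to 0.410 by time). The fit with that batch as a replicate block was an alternative. For 24 h against 0 h within a line, the block was the replicate number. Others were sample medians subtracted, quantile normalisation, an offset of 1, miRNAs with means under 2 left out, no trend, only the compared groups, and each replicate left out. The members and lists were chosen with earlier results of these data known. All members are named, and outside the cluster those sharing a seed, listed miRNAs of a neighbouring X-linked cluster and the 5 most alike profiles.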

Additional observations from a re-analysis of the deposited data

How the results depend on the processing

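Of 1638 single-member values under alternatives, 1528 kept their direction where called and their side of the threshold, 70 were no longer past it, 40 came past it, and none that was called changed sign. Subtracting sample medians moved the median line difference of all miRNAs at 24 h by 0.23 (to 0.17) and that of the members to 1.00, with 23.7% of all miRNAs called higher in place of 17.9%. The number of members called moved by over 1.5 times as follows, with the number called among all 469 miRNAs in brackets. At 0 h it was 2 with sample medians subtracted (43), 1 without means under 2 (35 of 341) and 1 with the replicate block (44), in place of 0 (40). At 2 h it was 2 with medians subtracted (49), 2 without means under 2 (48 of 341) and 2 without the trend (54). There it was 0 with quantile normalisation (51) and 0 with only the compared groups (16), in place of 1 (53). At 6 h it was 3 with medians subtracted (66) and 2 with only the compared groups (70), in place of 1 (71). At 12 h it was 0 with only the compared groups (18), in place of 4 (102). For the Ikaros line from 2 to 24 h it was 5 with medians subtracted (120) and 6 with quantile normalisation (118). There it was 0 with only the compared groups (71), in place of 3 (134). For the test over all 6 times it was 1 with medians subtracted (57), in place of 0 (61). That member was miR-450b-5p (limma, adjusted p = 0.0438). Leaving out each replicate in turn left 2 samples a group. It gave 0 members at 2 h (18 to 34 of all miRNAs) and 0 to 1 at 6 h (22 to 41). At 12 h it gave 0 to 3 (34 to 91), at 18 h 3 to 7 (69 to 125) and at 24 h 2 to 5 (110 to 142). The average had 7 to 10 (182 to 212). Ikaros from 2 to 24 h had 0 to 4 (54 to 128) and Ikaros from 0 to 24 h 0 to 2 (56 to 118). In each of these comparisons fewer of all miRNAs were called than with every replicate kept. The replicate block changed the calls of miR-450b-5p at 0 h, miR-351-3p at 12 h and miR-503-5p in the Ikaros line from 2 to 24 h, and no other call. The filter on means under 2 removed 3 members. Which step of the authors' normalisation bears on a value was not tested, and the counting error of single values cannot be given from normalised values.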
